A study of Mus musculus with 12 samples.

Results

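The 7 genes described here carry the names of the mouse factors of peptide elongation on cytosolic ribosomes, Eef1a1, Eef1a2, Eef1b2, Eef1d, Eef1g, Eef1e1 and Eef2, although the product of Eef1e1 belongs to another complex. They were taken by gene name from a deposited table of 53351 genes, and each name matched 1 row. All 7 passed the filter on low values that left 20240 genes to be tested. In total and polysome mRNA of neural progenitor cells, their values differed in how they stood after the mTOR kinase inhibitor Torin1. Eef1a1, Eef1b2 and Eef1g fell in polysome mRNA, while for Eef1d, Eef1e1, Eef1a2 and Eef2 no difference in polysome mRNA passed the test. The polysome call of Eef1a1 was lost when only the groups compared were fitted. Eef1d gained a call as higher when libraries were scaled by column total only, and Eef1e1 one as lower without polysome replicate 3 of Torin1 cells. In total mRNA Eef2 rose and no other member passed in the fit of all 12 libraries. There Eef2 lost its call when libraries were scaled by column total only, Eef1a1 gained one without polysome replicate 3 of Torin1 cells, and Eef1a1 and Eef1g gained one when only the groups compared were fitted.

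The cells were primary neural progenitor cells of wild-type genotype, dissociated from the cerebral cortex of mouse embryos at E13.5 and kept overnight in culture medium with bFGF and EGF. They received 250 nM Torin1 or the solvent DMSO for 2 h, then 100 ug/ml cycloheximide for 5 min, which holds ribosomes on mRNA. Of each lysate, 10% was set aside for total mRNA. The remainder was run through a sucrose gradient, and fractions carrying more than 3 ribosomes made up the polysome mRNA. The 4 groups were polysome mRNA of Torin1 cells, polysome mRNA of DMSO cells, total mRNA of Torin1 cells and total mRNA of DMSO cells, with 3 libraries each, named biological replicates in the labels. Nothing further in the labels says whether these were separate litters or cultures, so the p-values measure the spread between these 12 libraries.

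During elongation, eEF1A bound to GTP brings each aminoacyl-tRNA to the ribosome, and the eEF1B complex then recharges eEF1A by exchanging its spent GDP for GTP. eEF2 uses GTP to move the ribosome along by a codon, and its kinase, eEF2K, slows it by phosphorylation. Many mRNAs of the translation machinery, those of ribosomal proteins and of elongation factors among them, are known as TOP mRNAs. These begin with a C and a run of pyrimidines, and their loading onto ribosomes depends on mTOR.

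The sequence around the annotated start is shown for the members found in RefSeq's promoter table of GRCm38.p6, because the TOP motif is defined there and the members differed in their polysome response. The table held 5 of the 7 members, and Eef1d and Eef1g were not matched. Only the first start listed for a gene was used, for the members and for all other genes. Any further annotated starts of a gene were not searched. Each line gives 40 bases before the annotated start and 30 bases from it, 5′ to 3′ on the gene's own strand. Capitals mark every run of a C followed by at least 4 pyrimidines (C or T), searched on that strand only. The windows lie at chr9:78481695-78481764 (minus strand, Eef1a1), chr2:181156986-181157055 (minus, Eef1a2), chr1:63176791-63176860 (plus, Eef1b2), chr13:38658999-38659068 (minus, Eef1e1) and chr10:81176591-81176660 (plus, Eef2).
Eef1a1: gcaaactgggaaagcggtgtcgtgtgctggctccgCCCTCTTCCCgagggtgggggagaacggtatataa
Eef1a2: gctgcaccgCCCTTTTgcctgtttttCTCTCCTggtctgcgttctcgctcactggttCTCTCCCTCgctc
Eef1b2: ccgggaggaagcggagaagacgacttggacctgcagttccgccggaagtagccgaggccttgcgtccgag
Eef1e1: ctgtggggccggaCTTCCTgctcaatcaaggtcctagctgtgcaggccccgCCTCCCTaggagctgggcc
Eef2: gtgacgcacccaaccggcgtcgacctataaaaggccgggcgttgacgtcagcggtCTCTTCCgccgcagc

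In Eef1a1 a run of 10 bases spans the annotated start, from 5 bases before it to base 5 of the annotated transcript. In Eef2 a run of 7 bases begins at base 16 of the annotated transcript, in Eef1a2 a run of 9 bases begins at base 18, and in Eef1e1 a run of 7 bases begins at base 12. The other runs, beginning 31 and 14 bases before the start of Eef1a2 and 27 bases before that of Eef1e1, lie outside the annotated transcript. Eef1b2, which had the lowest polysome fold of the 7, had no such run in its window. A run was present in 4 of the 5 member windows and in 53 of 59 windows of cytosolic ribosomal protein genes (89.8%). Over all 27025 windows, each from a different gene, the share was 65.1%. None of the 5 members had a C at the annotated start followed by at least 4 pyrimidines, against 14 of 59 ribosomal protein genes (23.7%) and 2.49% of all genes. The base before the start was not considered in this count, so a run that began earlier could be included. The sequence TATAA, searched on the same strand, was present in the windows of Eef1a1, beginning at base 26 of the annotated transcript, and of Eef2, beginning 15 bases before the start, and in 5.77% of all windows. The start sites used in these cells were not measured, and a match is a match of letters only.

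Values below are the deposited abundances after rescaling between libraries, as ppm of the mean column total. Levels are compared for a gene with itself, since no source used here says whether the deposited values allow for transcript length. Folds are differences in log2(value + 1), where the value is the rescaled abundance before it is expressed as ppm. They are given ± their standard error (SE). Adjusted p-values come from limma with Benjamini-Hochberg adjustment over all 20240 genes tested, at a threshold of 0.05. Column totals ran from 14341674 to 19201406 and do not count reads, so sequencing depth is unknown. Within groups, Pearson's r across 9350 expressed genes (log2 of the mean ppm of at least 3), which are not independent replicates, lay between 0.963 and 0.984. Replicate 2 of total mRNA from Torin1 cells stood apart, with 2061 ppm of the small nuclear RNA gene Rn7sk against 38.2 to 181 ppm in the other total libraries. Markers of progenitors were present, for example Sox2 with 127 ± 0.922 ppm in total mRNA of Torin1 cells and 106 ± 2.08 ppm in that of DMSO cells (SD, n = 3 each). The neuronal tubulin gene Tubb3 was present too, with 938 ± 46.3 ppm in total mRNA of Torin1 cells and 993 ± 39.1 ppm in that of DMSO cells. RNA of blood cells was also present. The 7 erythroid markers summed to 1602 to 1863 ppm in total mRNA of Torin1 cells and 1470 to 1579 ppm in that of DMSO cells. In polysome mRNA they summed to 2067 to 3209 ppm in Torin1 cells and 1929 to 2435 ppm in DMSO cells. Of 73 markers of 8 cell types, 19 were higher and 0 lower with Torin1 in total mRNA, with the same counts in polysome mRNA. Among all genes tested, 3.33% passed as higher and 4.15% as lower in total mRNA, and 4.41% and 6.27% in polysome mRNA. In limma's test of the difference between the fractions 0 of the 73 passed, with 1 higher and 1 lower at an unadjusted p under 0.05.

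Eef1a1 on chromosome 9, from 78478453 to 78481724 (GRCm38.p6, as for all coordinates here), encodes the main form of eEF1A in most tissues. In polysome mRNA it had 3199, 3382 and 4166 ppm in Torin1 cells, against 6804, 6761 and 6772 ppm in DMSO cells. In total mRNA it had 7755, 7283 and 7610 ppm in Torin1 cells, against 6062, 6217 and 6077 ppm in DMSO cells. The groups did not overlap in either fraction, and they lay on opposite sides, with Torin1 cells lower in polysome mRNA and higher in total mRNA. The polysome fold was -0.93 ± 0.12 (limma, adjusted p = 0.000453). The total fold was 0.30 ± 0.12 and did not pass (limma, adjusted p = 0.155). Without polysome replicate 3 of Torin1 cells, the highest of its group, the SE of this total fold was 0.07 and it passed with an adjusted p of 0.0191 (limma). With only the groups compared in the fit, the polysome fold had an adjusted p of 0.0605 and the total fold 0.00624 (limma).

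Eef1a2 on chromosome 2, from 181141758 to 181157015, encodes the second form of eEF1A, which in the adult is the form of neurons and muscle. Polysome mRNA held 45.7, 37.2 and 34.1 ppm in Torin1 cells, against 43.5, 40.8 and 46.8 ppm in DMSO cells. Total mRNA held 52.2, 49.2 and 54.6 ppm in Torin1 cells, against 44.8, 49.0 and 42.0 ppm in DMSO cells. The polysome groups overlapped, and in total mRNA every Torin1 library lay above every DMSO library by a narrow margin. Neither fold passed, at -0.17 ± 0.10 in polysome mRNA (limma, adjusted p = 0.351) and 0.20 ± 0.10 in total mRNA (limma, adjusted p = 0.305). The 12 neuron markers summed to 3562 to 3893 ppm in polysome mRNA of Torin1 cells and 3611 to 3752 ppm in that of DMSO cells. In total mRNA they summed to 3603 to 3706 ppm in Torin1 cells and 3409 to 3495 ppm in DMSO cells, with 2 of the 12 higher and 0 lower in each fraction, none at 0. Their part in the Eef1a2 values was not tested, and in bulk samples fewer cells of a type and less RNA per cell cannot be told apart.

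Of the 3 subunits of eEF1B, Eef1b2 and Eef1g fell in polysome mRNA and Eef1d did not pass. Eef1b2 on chromosome 1, from 63176831 to 63180486, encodes an exchange subunit that reloads eEF1A with GTP. Its polysome level was 229, 227 and 291 ppm in Torin1 cells, against 584, 461 and 579 ppm in DMSO cells, and the groups were far apart. Its total level was 397, 387 and 368 ppm in Torin1 cells, against 348, 365 and 341 ppm in DMSO cells, a narrow gap. Eef1b2 fell in polysome mRNA by 1.12 ± 0.11 on the log2 scale (limma, adjusted p = 8.13e-05), and its total fold of 0.13 ± 0.11 did not pass (limma, adjusted p = 0.569).

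Eef1d on chromosome 15, from 75894796 to 75909784, encodes the other exchange subunit. It had 299, 274 and 307 ppm in polysome mRNA of Torin1 cells, against 282, 281 and 311 ppm in that of DMSO cells. It had 183, 173 and 176 ppm in total mRNA of Torin1 cells, against 171, 189 and 162 ppm in that of DMSO cells. The groups overlapped in both fractions. Its polysome fold was 0.01 ± 0.07 with a 95% interval from -0.15 to 0.17 (limma, adjusted p = 0.965), and its total fold was 0.03 ± 0.07 (limma, adjusted p = 0.864). When libraries were scaled by column total only, which put the median polysome fold of expressed genes at 0.20 against -0.06, the polysome fold of Eef1d was 0.27 and passed (limma, adjusted p = 0.0316).

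Eef1g on chromosome 19, from 8967041 to 8978180, encodes the scaffold subunit of eEF1B. Polysome mRNA was 321, 275 and 266 ppm in Torin1 cells, against 465, 478 and 484 ppm in DMSO cells. Total mRNA was 525, 512 and 510.0 ppm in Torin1 cells, against 456, 467 and 454 ppm in DMSO cells. As with Eef1a1, the groups did not overlap in either fraction, lower with Torin1 in polysome mRNA and higher in total mRNA. The polysome fold of -0.73 ± 0.07 passed (limma, adjusted p = 8.13e-05). The total fold of 0.17 ± 0.07 did not (limma, adjusted p = 0.196), though with only the groups compared in the fit it had an adjusted p of 0.0124 (limma).

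Eef1e1 on chromosome 13, from 38645691 to 38659028, is named after the elongation factor for its sequence but encodes AIMP3, a scaffold protein of the multi-tRNA synthetase complex. It had 131, 116 and 205 ppm in polysome mRNA of Torin1 cells, against 198, 159 and 183 ppm in that of DMSO cells. In total mRNA it had 76.9, 62.2 and 73.6 ppm in Torin1 cells, against 77.6, 73.0 and 80.2 ppm in DMSO cells. Both pairs of groups overlapped, and replicate 3 of polysome mRNA from Torin1 cells was the highest of all 12 libraries. The polysome fold was -0.30 ± 0.17 with a 95% interval from -0.67 to 0.08 (limma, adjusted p = 0.334). Without that replicate it was -0.54 and passed (limma, adjusted p = 0.00906). The total fold was -0.12 ± 0.17 (limma, adjusted p = 0.744).

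Eef2 on chromosome 10, from 81176631 to 81182509, encodes the translocase eEF2. In polysome mRNA it had 871, 747 and 703 ppm in Torin1 cells, against 790.1, 810.2 and 793 ppm in DMSO cells. In total mRNA it had 1658, 1512 and 1605 ppm in Torin1 cells, against 1149, 1177 and 1134 ppm in DMSO cells. The polysome groups overlapped, with the Torin1 libraries on both sides of the DMSO libraries, and the total groups were well separated. Eef2 rose in total mRNA, by 0.46 ± 0.08 on the log2 scale (limma, adjusted p = 0.00657). The fold was 0.50 without total replicate 2 of Torin1 cells (limma, adjusted p = 0.0182) and 0.43 when libraries were scaled by column total only, where it just missed (limma, adjusted p = 0.0505). In the same total libraries the 6 intermediate progenitor markers summed to 270.1 to 277 ppm in Torin1 cells and 179 to 187 ppm in DMSO cells, with 5 of the 6 higher, 0 lower and none at 0. Other markers were higher there too, 4 of 12 of radial glia, 4 of 11 of endothelial, mural and meningeal cells and 3 of 8 of interneurons. The counts were 2 of 12 for neurons, 1 of 9 for oligodendrocytes and astrocytes, 0 of 8 for microglia and 0 of 7 for erythroid cells. The part of any of these lists in the Eef2 result was not tested.

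**Figure D1:**
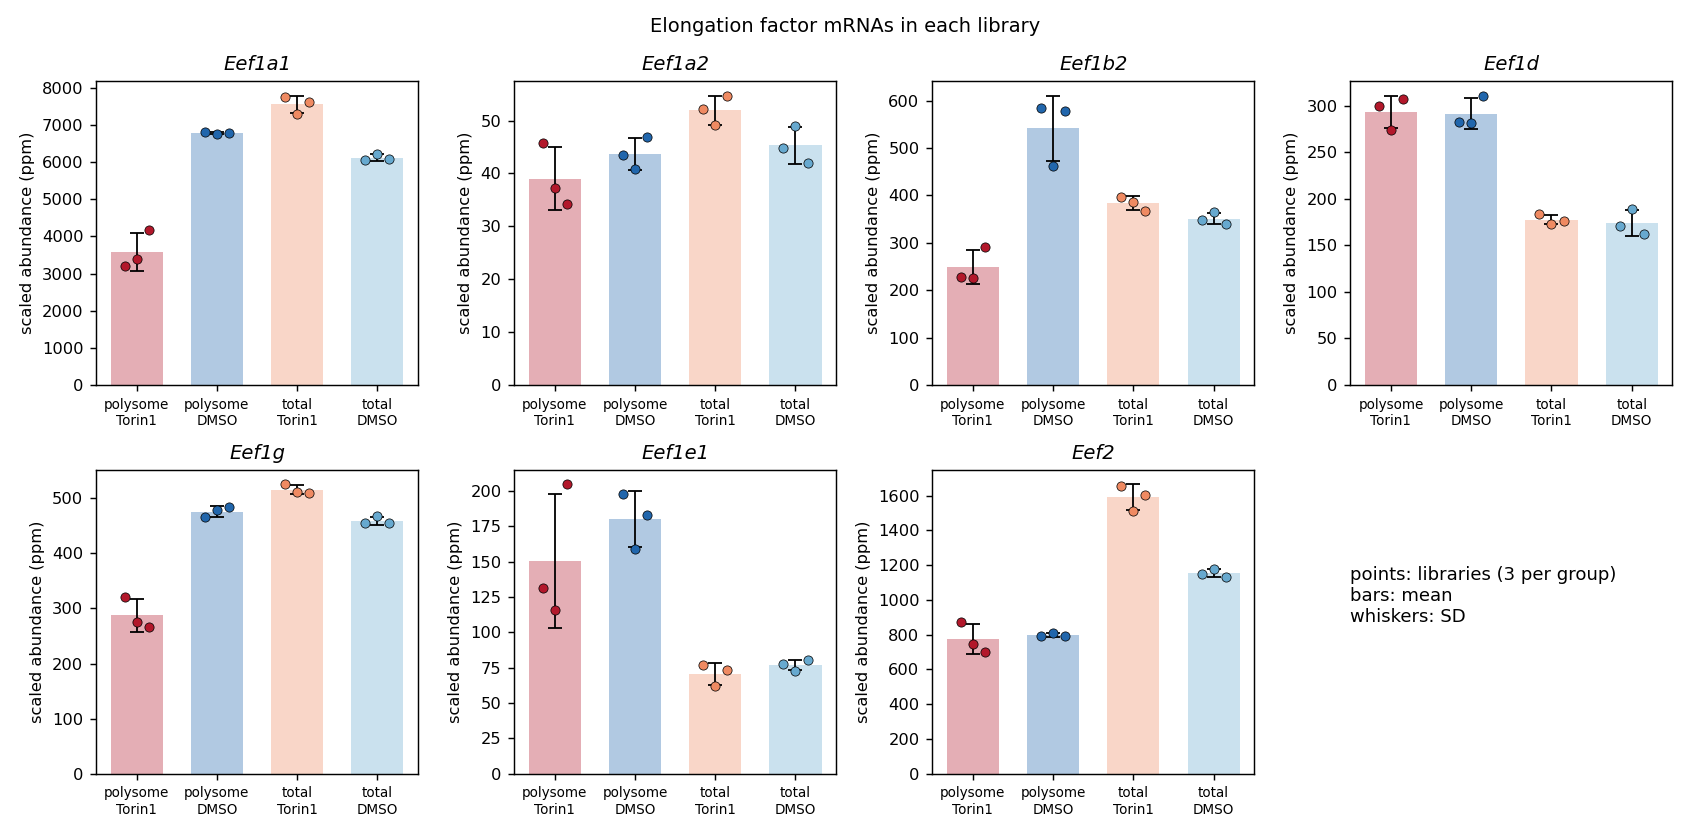
Scaled abundance in ppm (vertical axes, each from 0) of the 7 elongation factor genes in polysome mRNA of Torin1 and DMSO cells and total mRNA of Torin1 and DMSO cells. Points are libraries, bars the mean and whiskers the SD of 3 libraries. Eef1a1, Eef1b2 and Eef1g are lower in all 3 polysome libraries of Torin1 cells than in any polysome library of DMSO cells, and Eef2 is higher in all 3 total libraries of Torin1 cells.

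In polysome mRNA, 3 of the 7 members passed the test as lower with Torin1 and 0 as higher, where 6.27% of all genes tested passed as lower and 4.41% as higher. All 7 members were expressed genes, and of all expressed genes 11.7% passed as lower and 6.31% as higher. The libraries of the 2 groups did not overlap for the same 3 members, where 13.4% of genes tested had all Torin1 libraries below all DMSO libraries. The members' median polysome fold was -0.30, and the median of all genes tested was -0.01. Among the 9350 expressed genes, the polysome fold of Eef1b2 lay at percentile 1.24, that of Eef1a1 at 1.67 and that of Eef1g at 2.72, while that of Eef2 lay at 51.7 and that of Eef1d at 61.1.

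In total mRNA, 1 of the 7 members passed as higher and 0 as lower, where 3.33% of all genes tested passed as higher and 4.15% as lower, and of expressed genes 4.44% passed as higher and 7.47% as lower. For 5 of the 7 (Eef1a1, Eef1a2, Eef1b2, Eef1g and Eef2) all Torin1 libraries lay above all DMSO libraries, where 15.6% of genes tested did. The members' median total fold was 0.17, and that of all genes tested was 0.00. The fold of Eef2 lay at percentile 96.3 of expressed genes and that of Eef1a1 at 92.1.

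**Figure D2:**
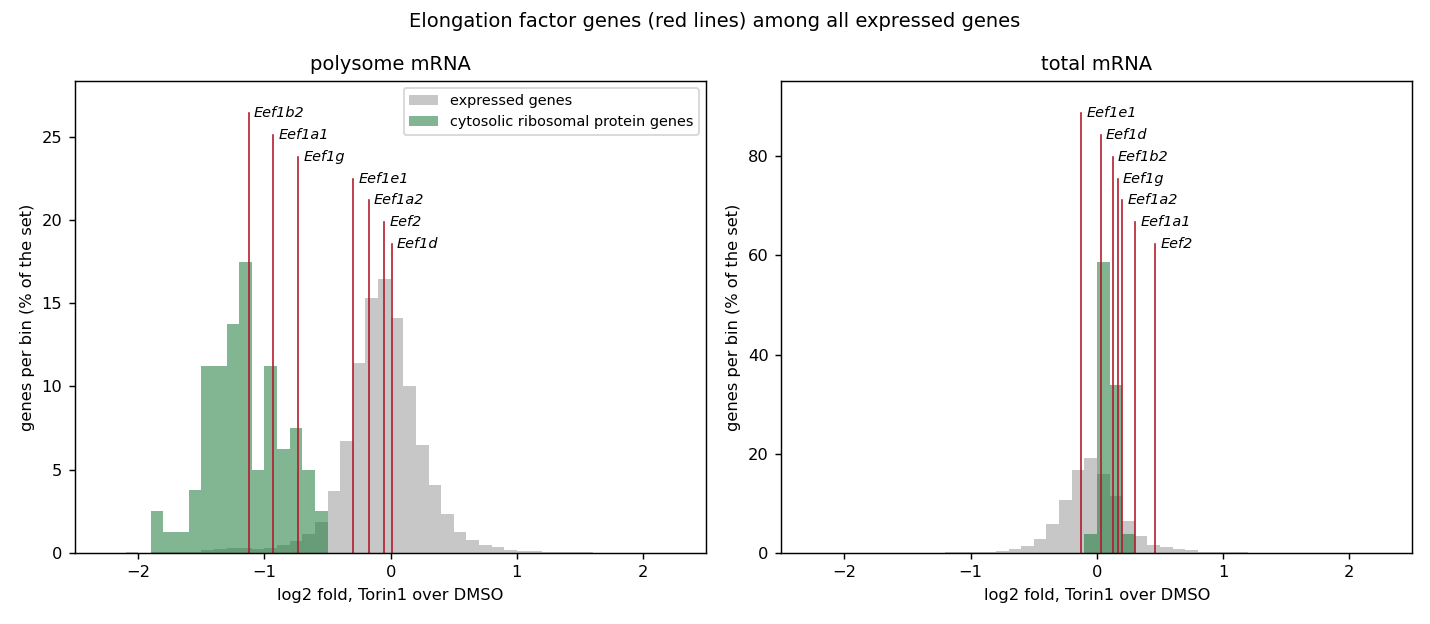
Share of genes per bin of the log2 fold, Torin1 over DMSO (horizontal axes), in polysome mRNA (left) and total mRNA (right), for 9350 expressed genes (grey) and 80 cytosolic ribosomal protein genes (green), with a red line for each elongation factor gene. In polysome mRNA Eef1b2, Eef1a1 and Eef1g lie among the ribosomal protein genes and the other 4 lie among the bulk of expressed genes.

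Whether the response in polysome mRNA differed from that in total mRNA was tested as an interaction, the polysome fold minus the total fold, in the same fit of 12 libraries, so it shares its libraries with the 2 comparisons above. Eef1b2 (-1.25 ± 0.15, limma, adjusted p = 0.00168), Eef1a1 (-1.23 ± 0.17, adjusted p = 0.00313) and Eef1g (-0.90 ± 0.10, adjusted p = 0.000954) passed as lower. That is 3 of the 7 members, with 0 higher, where 0.692% of genes tested passed as lower and 0.0148% as higher, and of expressed genes 1.4% passed as lower and 0.0107% as higher. Without total replicate 2 of Torin1 cells the 3 values were -1.24 for Eef1b2, -1.26 for Eef1a1 and -0.90 for Eef1g, and all 3 passed (limma, adjusted p = 0.00792, 0.0117 and 0.00432). Scaled by column total only, which put the median interaction of expressed genes at 0.30 against 0.00, that of Eef1g was -0.60 and did not pass (limma, adjusted p = 0.0873).

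Eef2 had an interaction of -0.51 ± 0.12 with a 95% interval from -0.77 to -0.26, and it did not pass over all genes (limma, adjusted p = 0.110). Its total fold and not its polysome fold made up most of this value. Without polysome replicate 1 of Torin1 cells, the highest of its group for Eef2, the value was -0.60 and passed (limma, adjusted p = 0.0177). Eef1a2 had -0.37 ± 0.15 (limma, adjusted p = 0.762), Eef1e1 -0.17 ± 0.24 (limma, adjusted p = 0.999) and Eef1d -0.02 ± 0.10 (limma, adjusted p = 0.999). The 95% interval of Eef1d ran from -0.25 to 0.21, and its lower end was above the values of Eef1b2 and Eef1g, while that of Eef1e1 ran from -0.71 to 0.36.

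**Figure D3:**
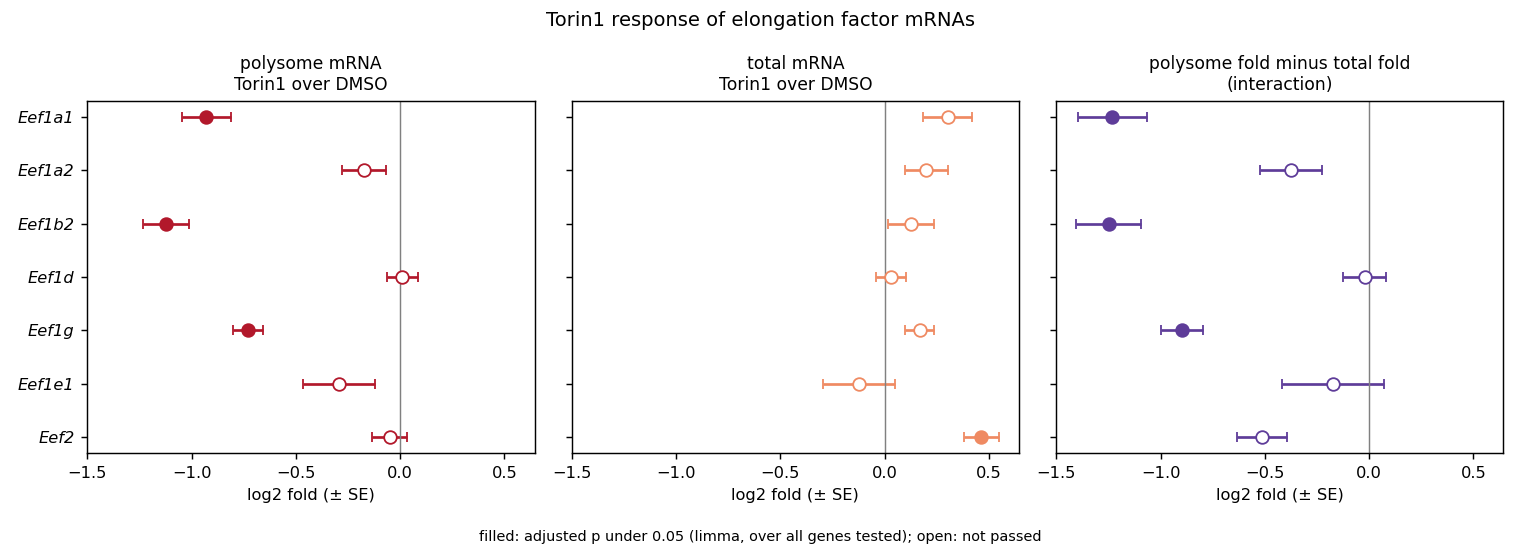
Log2 fold with SE (horizontal axes) of each elongation factor gene, Torin1 over DMSO in polysome mRNA (left) and in total mRNA (middle), and the polysome fold minus the total fold (right). Filled points passed an adjusted p of 0.05 in limma. Eef1a1, Eef1b2 and Eef1g are filled at left and right, and Eef2 is filled only in the middle panel.

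A ratio of each member to Eef1a1 within a library does not depend on the scaling between libraries. With 3 libraries against 3, a two-sided exact permutation test cannot give a p below 0.1, so none of these 12 comparisons could pass, and the lowest value after Benjamini-Hochberg adjustment over the 12 was 0.133. In polysome mRNA the log2 ratio of Eef1d to Eef1a1 was -3.60 ± 0.17 in Torin1 cells and -4.54 ± 0.08 in DMSO cells (SD, n = 3 each), a difference of 0.94 with no overlap (exact p = 0.1). That of Eef2 was -2.21 ± 0.35 in Torin1 cells and -3.09 ± 0.02 in DMSO cells, a difference of 0.88 with no overlap (SD, n = 3 each, exact p = 0.1). The ratios of Eef1a2 and Eef1e1 to Eef1a1 in polysome mRNA were also higher in Torin1 cells without overlap, by 0.76 for Eef1a2 and 0.63 for Eef1e1. These are differences in a ratio whose denominator fell, and the polysome fold of none of these 4 genes passed as higher. In both fractions the ratio was taken for the members only. The share of all genes without overlap in it is therefore not known, and the lack of overlap is not a result about these members.

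The ratios of the remaining members to Eef1a1 overlapped between treatments in polysome mRNA. That of Eef1b2 was -3.85 ± 0.05 in Torin1 cells and -3.65 ± 0.19 in DMSO cells (SD, n = 3 each, exact p = 0.3). That of Eef1g was -3.63 ± 0.33 in Torin1 cells and -3.83 ± 0.03 in DMSO cells (SD, n = 3 each, exact p = 0.4). In total mRNA the ratio of Eef2 to Eef1a1 was higher by 0.16 with Torin1 without overlap. Those of Eef1b2, Eef1d, Eef1e1 and Eef1g were lower by between 0.14 and 0.43 without overlap, and that of Eef1a2 overlapped.

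**Figure D4:**
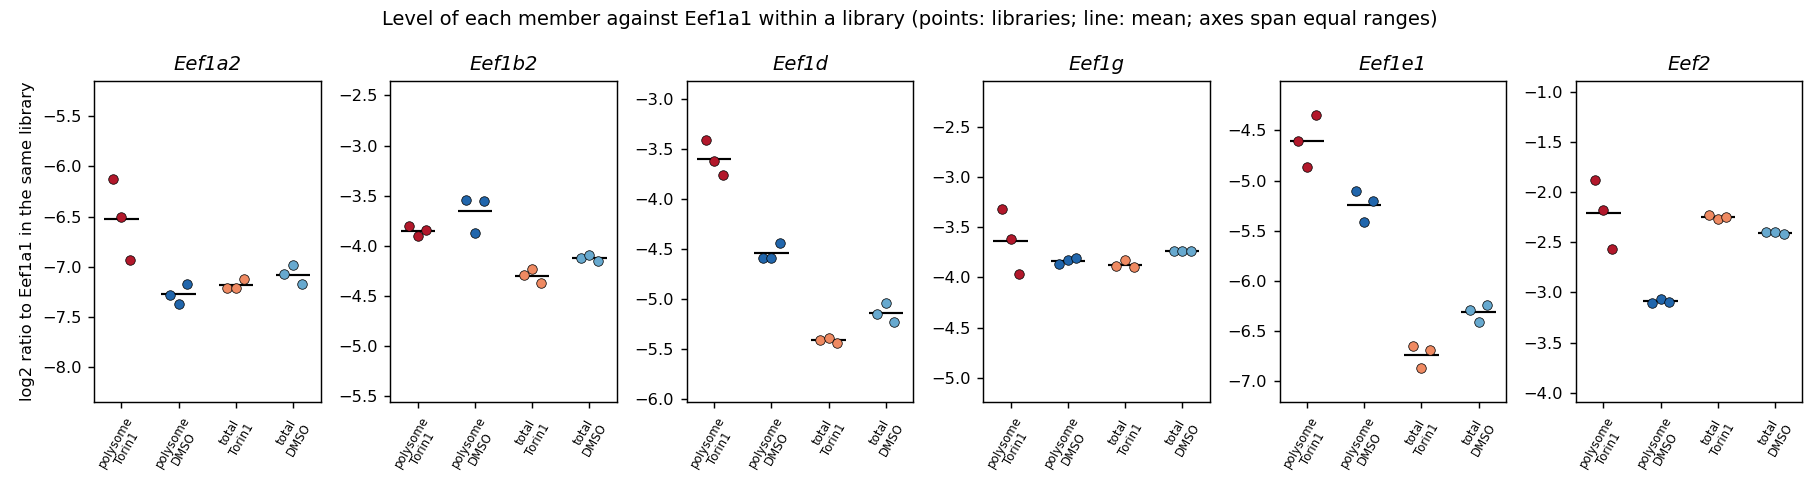
Log2 ratio of each elongation factor gene to Eef1a1 in the same library (vertical axes, all spanning equal ranges), in the 4 groups of 3 libraries. Points are libraries and lines are means. In polysome mRNA the ratios of Eef1a2, Eef1d, Eef1e1 and Eef2 lie higher in Torin1 cells than in DMSO cells without overlap, and those of Eef1b2 and Eef1g overlap.

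Setting polysome against total mRNA within a treatment gives the level of each mRNA in one fraction relative to the other, after scaling. The scaling rests on the relative levels of genes within each library, so 0 is set by the scaling and not by an equal split of an mRNA. The median of expressed genes was 0.12 in Torin1 cells and 0.15 in DMSO cells. In Torin1 cells 2 members passed as higher in polysome mRNA and 5 as lower, where 20.7% of genes tested passed as higher and 19.1% as lower, and of expressed genes 39.5% passed as higher and 25.6% as lower. Eef1e1, at 1.05 ± 0.17, and Eef1d, at 0.72 ± 0.07, were the 2 that were higher (limma, adjusted p = 0.000406 and 1.21e-05). Eef1a1 (-1.08 ± 0.12), Eef2 (-1.05 ± 0.08), Eef1g (-0.85 ± 0.07), Eef1b2 (-0.63 ± 0.11) and Eef1a2 (-0.42 ± 0.10) were lower (limma, adjusted p from 3.01e-06 for Eef2 to 0.00616 for Eef1a2).

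In DMSO cells 3 members passed as higher in polysome mRNA and 1 as lower, where 21.8% of genes tested passed as higher and 19.3% as lower, and of expressed genes 40.9% passed as higher and 25.6% as lower. Eef1e1 was higher by 1.22 ± 0.17, Eef1d by 0.74 ± 0.07 and Eef1b2 by 0.62 ± 0.11, and Eef2 was lower at -0.53 ± 0.08 (limma, adjusted p = 0.000119, 8.47e-06, 0.000629 and 0.000253). For Eef1a1 the value was 0.15 ± 0.12, for Eef1g 0.05 ± 0.07 and for Eef1a2 -0.05 ± 0.10, and none of the 3 passed (limma, adjusted p = 0.354, 0.616 and 0.744). Scaled by column total only, which put the median of expressed genes at -0.26 against 0.15, these 3 were -0.26, -0.36 and -0.46 and passed as lower (limma, adjusted p = 0.0340, 0.00996 and 0.0102). Eef1b2 therefore lay above total mRNA in DMSO cells and below it in Torin1 cells, and Eef1d and Eef1e1 lay above it under both treatments. The 2 treatments' values share no library.

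**Figure D5:**
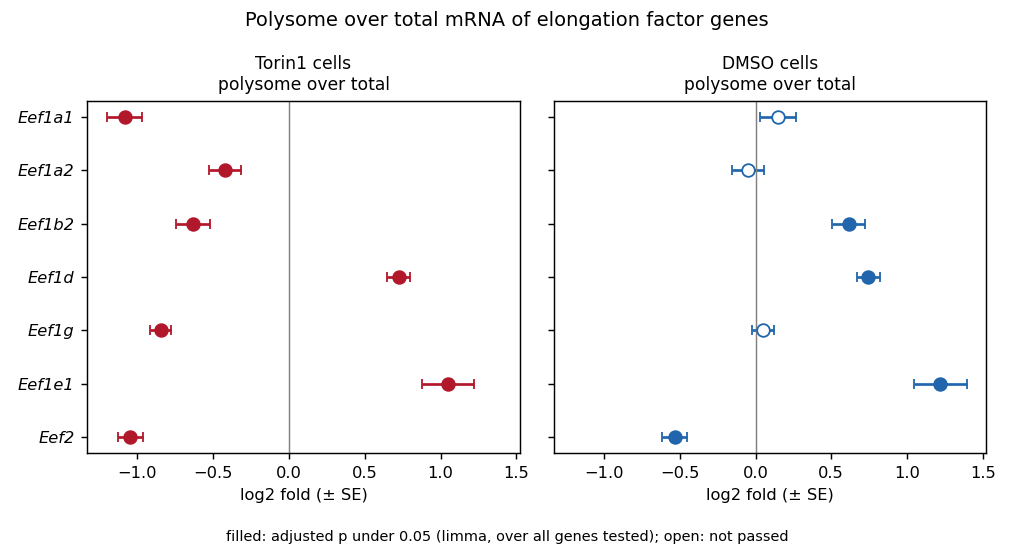
Log2 fold with SE of polysome over total mRNA (horizontal axes) for each elongation factor gene in Torin1 cells (left) and DMSO cells (right). Filled points passed an adjusted p of 0.05 in limma. Eef1a1, Eef1a2 and Eef1g, open in DMSO cells, are filled below 0 in Torin1 cells, and Eef1b2 is on opposite sides of 0.

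Ordered by mean level, Eef1a1 was highest in total mRNA of Torin1 cells, followed by polysome mRNA of DMSO cells, total mRNA of DMSO cells and polysome mRNA of Torin1 cells, with no overlap between neighbours. Eef1b2 was highest in polysome mRNA of DMSO cells, followed by total mRNA of Torin1 cells, total mRNA of DMSO cells and polysome mRNA of Torin1 cells, also with no overlap. For Eef1g the order was that of Eef1a1, with polysome mRNA and total mRNA of DMSO cells overlapping. Eef1d and Eef1e1 had both polysome groups above both total groups, with the treatments overlapping in each fraction. Eef2 and Eef1a2 had both total groups above both polysome groups by mean, and the polysome groups overlapped. For Eef1a2, total and polysome mRNA of DMSO cells overlapped as well. The share of all genes with such orders was not counted. The lack of overlap between neighbours is therefore not a result about these members.

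Over the 12 libraries, the expressed genes whose log2 levels followed those of the members most closely differed by member. Of 8817 candidates, the closest to Eef1b2 were the ribosomal protein genes Rpl17, Rps7 and Rpl13a (Pearson's r = 0.996, 0.994 and 0.989), and to Eef1g the ribosomal protein genes Rps2 and Rplp0 and the initiation factor subunit gene Eif3f (0.984, 0.984 and 0.956). Those closest to Eef1a1 were Tpt1, a known TOP mRNA, Rpl12 and Eef1g (0.975, 0.959 and 0.935). Eef1d was followed by Ndufs3, Fkbp8 and Galk1 (0.994, 0.993 and 0.992), and Eef1e1 by Rab11a, Med4 and Nifk (0.996, 0.993 and 0.993). Eef2 was followed by Hsp90ab1, Nefm and Chd3 (0.979, 0.972 and 0.959), and Eef1a2 less closely by Gramd1a, Bgn and mt-Nd3 (0.874, 0.855 and 0.846). Between members, r was highest for Eef1a1 with Eef1g (0.935) and Eef1d with Eef1e1 (0.928). It was lowest for Eef1e1 with Eef2 (-0.883) and Eef1d with Eef2 (-0.877). The libraries share fraction and treatment, so these values describe the 4 groups and carry no test.

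Cytosolic ribosomal protein genes, the best known TOP mRNAs, were set beside the members. Of 80, 79 fell and 0 rose in polysome mRNA with Torin1, with a median fold of -1.17 and a range from -1.83 to -0.55. The lowest were Rps19 (-1.83 ± 0.14), Rps27 (-1.82 ± 0.18) and Rps12 (-1.77 ± 0.12). In total mRNA 0 passed in limma (median 0.09), with 3 higher and 0 lower at an unadjusted p under 0.05. In the interaction 65 of the 80 passed as lower, with a median of -1.25. Eef1b2, Eef1a1 and Eef1g lay within the range of the ribosomal protein genes in polysome mRNA, and Eef1d, Eef1e1, Eef1a2 and Eef2 lay above its upper end. In DMSO cells 77 of the 80 were higher and 1 lower in polysome than in total mRNA (median 0.95), above the 0.62 of Eef1b2, the 0.15 of Eef1a1 and the 0.05 of Eef1g. Members and ribosomal protein genes were measured in the same libraries, and no test sets the one list against the other. To set beside this list and those below, 6.27% of all genes tested were lower and 4.41% higher in polysome mRNA. The shares in total mRNA were 4.15% lower and 3.33% higher, and those in the interaction 0.692% lower and 0.0148% higher.

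Of 6 further cytosolic elongation factors and partners, 1 rose and 0 fell in polysome mRNA (limma), with the same counts at an unadjusted p under 0.05. In total mRNA and in the interaction 0 passed, with 1 lower in total mRNA and 1 higher in the interaction at an unadjusted p under 0.05. The gene that rose was Vars, the valyl-tRNA synthetase that binds eEF1B, with 45.4 ± 6.04 ppm in Torin1 cells and 34.4 ± 2.18 ppm in DMSO cells (SD, n = 3 each), a fold of 0.39 ± 0.09 (limma, adjusted p = 0.0158). Eif5a, whose product relieves stalls during elongation, had 1671 ± 162 ppm in polysome mRNA of Torin1 cells and 1781 ± 37.2 ppm in that of DMSO cells (SD, n = 3 each), a fold of -0.10 ± 0.08 (limma, adjusted p = 0.524). Eef2k, the kinase of eEF2, had a polysome fold of 0.12 ± 0.10 (limma, adjusted p = 0.487) and a total fold of 0.05 ± 0.10 (limma, adjusted p = 0.836).

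Of 15 enzymes that modify eEF1A, eEF2 or eIF5A after translation, 0 passed in polysome mRNA or in the interaction (limma), with 1 higher and 1 lower in each at an unadjusted p under 0.05. The eIF5A hydroxylase gene Dohh, named for the highest mean ppm of the list over the 12 libraries, had a polysome fold of 0.03 ± 0.11 (limma, adjusted p = 0.898). In total mRNA 1 fell, Dph2, an enzyme of the diphthamide residue of eEF2 (-0.53 ± 0.11, limma, adjusted p = 0.0145). Of the same 15, 10 were higher and 0 lower in polysome than in total mRNA in Torin1 cells, with the same counts in DMSO cells. In Torin1 cells 20.7% of genes tested and 39.5% of expressed genes were higher, and in DMSO cells 21.8% and 40.9%. The largest value of the list was that of the lysine methyltransferase gene Eef1akmt1, 1.61 ± 0.13 in Torin1 cells and 1.59 ± 0.13 in DMSO cells.

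Of 10 genes of the multi-tRNA synthetase complex, in which the Eef1e1 product sits, 3 rose and 1 fell in polysome mRNA, and 0 passed in the interaction (limma), with 2 higher and 1 lower at an unadjusted p under 0.05. Eprs, which encodes the glutamyl-prolyl-tRNA synthetase, had 36.2 ± 5.09 ppm in polysome mRNA of Torin1 cells and 21.9 ± 2.25 ppm in that of DMSO cells (SD, n = 3 each), a fold of 0.72 ± 0.10 (limma, adjusted p = 0.000999). Qars (0.36 ± 0.10) and Lars (0.31 ± 0.09), which encode the glutamine and leucine synthetases, also rose, and the scaffold gene Aimp2 fell by 0.23 ± 0.07 on the log2 scale (limma, adjusted p = 0.0462, 0.0416 and 0.0487). In total mRNA Qars rose and Aimp2 fell.

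Among 8 genes of termination, release and ribosome rescue, 3 passed as lower and 1 as higher in polysome mRNA, and 2 as lower and 0 as higher in total mRNA. In the interaction 0 passed, also at an unadjusted p under 0.05 (limma). Pelo, whose product helps split stalled ribosomes, had 11.7 ± 1.73 ppm in polysome mRNA of Torin1 cells and 20.1 ± 1.59 ppm in that of DMSO cells (SD, n = 3 each). It fell by 0.79 ± 0.11 in polysome and by 0.87 ± 0.11 in total mRNA on the log2 scale (limma, adjusted p = 0.000901 and 0.00102). Of 8 genes of mitochondrial elongation, release and ribosome recycling, only Tsfm passed between Torin1 and DMSO cells. It encodes the exchange factor of the mitochondrial EF-Tu and had -0.34 ± 0.09 in polysome and -0.46 ± 0.09 in total mRNA (limma, adjusted p = 0.0380 and 0.0126).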

How the data were processed

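Polysome and total mRNA of mouse neural progenitor cells were sequenced in 12 libraries, 4 groups of 3. Per the labels, groups follow the sample titles. The deposited table holds a signal per gene that is never below 0. All nonzero values of a column lie within 0.011 of a whole multiple of a step, and each column holds close to the same number of steps (99969757 to 99976837), so a step is a share of the column and not a read. STAR 2.7.9a, HTSeq 0.6.0 and mm10 are listed, with no role, per the submitters' processing notes. No source used here gives how the authors scaled the signal, and no interval for counting error can be given.

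Signals were divided by the column total and an unweighted trimmed mean of log ratios (0.3 of ratios and 0.05 of abundances trimmed at each end), with factors from 0.801 to 1.12. Genes were kept where 3 or more libraries had a deposited value of 1 or above. With R 4.3.3, limma 3.58.1 was run on log2(value + 1), with 4 group means over 12 libraries and a variance trend, and p-values were adjusted within each of 5 comparisons. This scaling rests on the relative levels of genes within each library, so the whole amount of polysome mRNA was not compared. The script was tested on simulated data. RefSeq's GRCm38.p6, the assembly of mm10, gave coordinates and start sequences.

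Members and lists were chosen with earlier results of these data known. All members were named in each comparison, and from a list at most 3 genes past the threshold with the largest polysome folds, the one with the highest mean where none passed, or any gene of a list of 10 or fewer, with a fixed set of markers (Sox2 and Tubb3 among them). Dph2 and Eef1akmt1 were named after their values were seen. Alternatives were 5 scalings, other filters and pseudocounts, the compared groups alone, replicate blocks, no variance trend and each library left out. Summing members with genes named as their copies was added after seeing the data.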

Additional observations from a re-analysis of the deposited data

Results flagged for a closer look

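For 3 members the response to Torin1 differed between the polysome and the total fraction by the test of that difference (limma, adjusted over all 20240 genes). The polysome fold minus the total fold was -1.25 for Eef1b2, -1.23 for Eef1a1 and -0.90 for Eef1g. Torin1 was lower than DMSO in polysome mRNA and, without passing the test, higher in total mRNA for each of the 3. With 3 libraries a group, no outlier test was run on single libraries.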

How the results depend on the processing

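The 35 results of the members (7 genes in 5 comparisons) were recomputed under 26 alternatives, 882 values in all. Of these, 852 kept direction and call, 3 lost the call, 7 gained it and 20 changed sign, 2 of them with a call. Scaling to the column total alone changed most. It left 841 genes and 0 members called in total mRNA, and 7 members called between polysome and total mRNA in DMSO cells. It turned round Eef1d in total mRNA (-0.0056), Eef1a2 (0.091) and Eef2 (0.21) in polysome mRNA, Eef1d (0.28) and Eef1e1 (0.13) in the interaction, and Eef1a1 (-0.26) and Eef1g (-0.36) between fractions in DMSO cells. Upper quartile scaling gave Eef2 0.0014 in polysome mRNA and Eef1g -0.029 between fractions in DMSO cells. With only the groups compared, 2568 genes and 3 members passed in total mRNA and 510 genes in polysome mRNA. The causes were not tested.

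Leaving out each library in turn gave 720 to 2157 genes and 1 to 2 members in total mRNA, 1279 to 2888 genes and 3 to 4 members in polysome mRNA, and 104 to 232 genes and 3 to 4 members in the interaction, against 1513, 2162 and 143 genes with all libraries. The total count lay from 720 to 888 without any 1 of the 6 total libraries, the polysome count lowest without polysome DMSO replicates 1 and 3, and the interaction count highest without polysome Torin1 replicate 3. Values near 0 changed sign. Eef1d ranged from -0.0198 to 0.093 in total mRNA, -0.023 to 0.058 in polysome mRNA and -0.083 to 0.0297 in the interaction, Eef2 from -0.14 to 0.016 in polysome mRNA, and Eef1a2 from -0.10 to 0.0086 between fractions in DMSO cells.

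Same-numbered libraries did not deviate together throughout (r from -0.24 to 0.218 over the 4 pairs of groups). Between total mRNA of Torin1 and DMSO cells, r was 0.194, 0.193 and -0.0589 for replicates 1, 2 and 3. Every pair of groups held a negative value, so no deviation shared by all replicate numbers was detected. Each lysate gave a total and a polysome sample, but the labels do not say that a number marks the same lysate, and the numbers were not used as pairs. With the replicate number as a block, 1284, 1976 and 148 genes were called in total mRNA, polysome mRNA and the interaction, with 1, 3 and 3 members, and no member's call changed. The fit of compared groups alone does not apply to the interaction, and scaling within each fraction was run for the 2 Torin1 comparisons only. Precision is limited by 3 libraries a group and an unknown depth.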

Other observations

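The 7 genes together made up 0.537% ± 0.0128 of the column total in polysome mRNA of Torin1 cells and 0.760% ± 0.0431 in that of DMSO cells (SD, n = 3 each). In total mRNA they made up 1.12% ± 0.0633 in Torin1 cells and 0.929% ± 0.00992 in DMSO cells. Most of this was Eef1a1, with 0.357% ± 0.0267 of polysome columns of Torin1 cells and 0.566% ± 0.0373 of those of DMSO cells, and with 0.816% ± 0.0462 of total columns of Torin1 cells and 0.678% ± 0.00673 of those of DMSO cells. These shares are of the deposited columns, which amounts to scaling by column total only. The 80 cytosolic ribosomal protein genes made up 10.5% ± 0.887 of polysome columns of Torin1 cells and 19.2% ± 1.39 of those of DMSO cells.

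The spread between replicates was uneven. In polysome mRNA Eef1a1 had a coefficient of variation of 14.3% in Torin1 cells and 0.332% in DMSO cells, and Eef1e1 31.6% in Torin1 cells and 11% in DMSO cells. Replicate 3 of polysome mRNA from Torin1 cells was the highest of its group for Eef1a1, Eef1b2, Eef1d and Eef1e1 and the lowest for Eef1a2, Eef1g and Eef2. Entries named as copies of members held little, with at most 0.277 ppm for Gm13050, a copy of Eef2, and 0 in every library for Gm10307, a copy of Eef1a1.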
